A study of Homo sapiens with 6 samples.

Results

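The CDK inhibitor genes encode proteins that hold back the cyclin-dependent kinases, the enzymes that drive the cell cycle. A list of 8 genes was followed: CDKN1A, CDKN1B, CDKN1C, CDKN2A, CDKN2B, CDKN2C, CDKN2D and CDKN3. Their probe sets were those whose platform annotation names 1 of these genes and no other, with symbols updated through Entrez identifiers. That gave 22 of 49293 probe sets, for 7 of 18132 genes. No probe set was matched to CDKN2C, which is not analysed here. The cells were U87, a human glioblastoma line in long use, and their messenger RNA was read on Affymetrix arrays of 1 colour. In 3 samples the cells overexpressed the microRNA miR-151a, and in 3 samples they overexpressed miR-NC, taken here as the negative control microRNA. The sources used here do not give the arm of miR-151a, the means and duration of overexpression, or whether the cells came from 1 clone. Since no label calls the 3 samples of a group separate cultures, each p-value measures the spread between samples that may be technical repeats.

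The inhibitors fall into families by the kinases they bind. CDKN1A (p21), CDKN1B (p27) and CDKN1C (p57) form the CIP/KIP family, whose proteins bind several cyclin-CDK complexes, above all those of CDK2. The INK4 family, CDKN2A (p16), CDKN2B (p15), CDKN2C (p18) and CDKN2D (p19), binds CDK4 and CDK6 and keeps them from the D-type cyclins. CDKN3 stands apart, as it is a phosphatase that removes an activating phosphate from CDKs, and its RNA is known to peak in dividing cells. Loss of CDKN2A and CDKN2B is among the commonest lesions of glioblastoma, and U87 is known as a line without CDKN2A.

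With miR-151a, CDKN1A was higher, CDKN2D and CDKN3 were lower, and the other 4 measured genes did not pass the test. Values are probe set intensities on a linear scale, and differences are given on the log2(intensity + 1) scale as miR-151a minus miR-NC, with limma's p-values adjusted by Benjamini-Hochberg over all probe sets and a threshold of 0.05. Of the 22 probe sets, 2 were past the threshold as higher and 7 as lower. Over all probe sets 14.1% passed, 6.81% as higher and 7.27% as lower. In 13 of the 22 the 3 values of one group all lay beyond the 3 of the other, against 33.8% of all probe sets, 15.3% with miR-151a higher and 18.6% with it lower. Of these 13, 2 of CDKN1A and 2 of the dim CDKN1C were higher with miR-151a. Lower were 7 of CDKN3, 1 of CDKN1B and 1 of CDKN2D. Of the 7 probe sets past the threshold as lower, 6 belong to CDKN3. Probe sets of CDKN3 measure 1 RNA, so in both counts repeated readings weigh heavily and the count of genes is the fairer one. By its brightest probe set, 1 gene of 7 was higher and 2 were lower, where 15.4% of all genes passed. The median difference of the 7 genes was 0.06 and that of all genes -0.01. The genes that passed moved in opposite directions.

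**Figure D1:**
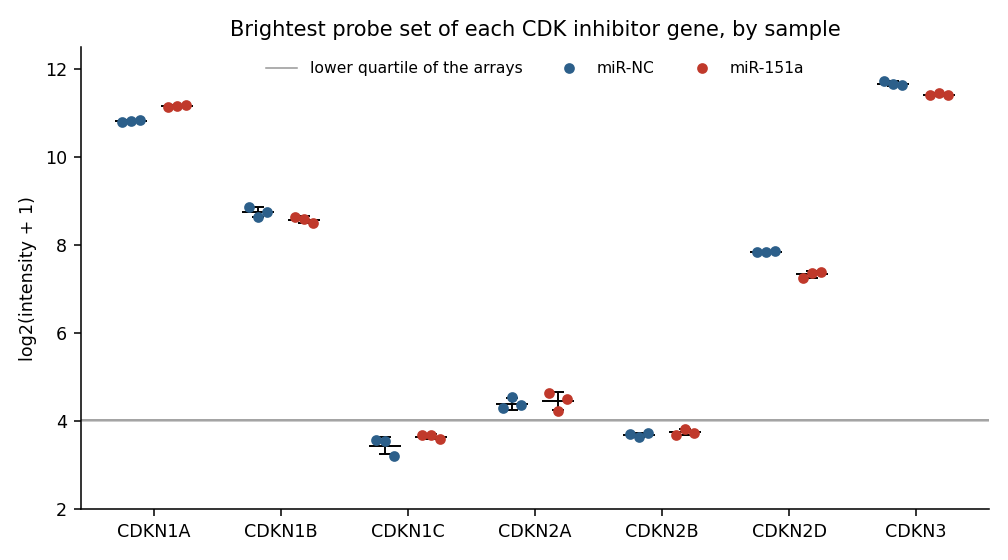
Level of the brightest probe set of each measured CDK inhibitor gene, as log2(intensity + 1) on the vertical axis, with 1 point per sample, miR-NC in blue and miR-151a in red, and black bars for the mean and SD of 3 samples. The grey band is the lower quartile of the 6 arrays; CDKN1A lies higher with miR-151a and CDKN2D and CDKN3 lower, while CDKN1C and CDKN2B lie under the band in all samples.

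The arrays themselves were alike, and with 6 of them their number limits the precision. Median intensities lay between 57.1 and 58.6 and lower quartiles between 14.9 and 15.6. Pearson correlations of log2 values over probe sets were 0.9980 to 0.9984 within groups and 0.9956 to 0.9958 between groups. Of 8 markers of a mesenchymal glioblastoma line, 7 were measured and 0 of them passed in limma by their brightest probe set (1, CD44, at an unadjusted p under 0.05). Of their probe sets, 1 of 10 for CD44, 1 of 8 for FN1 and 1 of 5 for ANXA1 passed as lower over all probe sets. VIM lay at the 99.998th percentile of all probe sets. The summed intensity of the 7 markers was 63383 to 65321 with miR-151a and 63547 to 66767 with miR-NC. The brightest probe set of the glial marker GFAP lay near the middle of the arrays, with a mean intensity of 61.4 with miR-151a and 63.2 with miR-NC. The 8 GFAP probe sets spanned the 7.41th to 51.2th percentiles, and 3 were below the lower quartile in all samples. The brightest probe set of AQP4 was below the lower quartile of its array in 5 of 6 samples. Of 6 measured immune markers 1 passed as higher, CD163, with a mean intensity of 16.3 against 9.90. CD163 was dim, at the 20.9th percentile, with 5 of 6 samples below the lower quartile of their array. An unadjusted p under 0.05 was found for 2, CD163 and ITGAM. ITGAM did not pass by its brightest probe set (adjusted p = 0.058), but 2 of its 3 probe sets passed as higher over all probe sets. The log2 differences were 0.39 to 1.47 over the 3. These lay at the 15.6th to 29.9th percentiles, and 1 was below the lower quartile in all samples. Of 7 glial, 4 epithelial and 4 endothelial markers 0 passed in limma (0, 0 and 1, PECAM1, at an unadjusted p under 0.05). All cell type markers named here were picked from their lists after their values were seen. The summed intensity of the immune markers was 1079 to 1166 with miR-151a and 1043 to 1099 with miR-NC. Most of it was CD68, with a mean of 1028 with miR-151a and 1004 with miR-NC (log2 difference 0.03). The sum therefore says little about CD163 or ITGAM. For beta-actin the control probe sets at the 3 prime and 5 prime ends had a log2 ratio of 0.29 ± 0.015 (SD, n = 3) in miR-151a samples, against 0.40 ± 0.030 (SD, n = 3) in miR-NC samples. For GAPDH the ratios were 0.047 and 0.041. The labels name whole-transcript labelling while the probe set names have the form of a 3 prime array, so what this ratio measures is not settled. The part of the immune markers and of this ratio in the results was not tested.

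The genes that passed were set beside their promoters, since CDKN1A moved against CDKN2D and CDKN3. RefSeq's promoter windows on GRCh38.p14 matched 7 of the 8 listed genes, and the 250 bases before the annotated start are shown for these 3, read 5′ to 3′ along each gene's own strand. Capitals mark every match, on either strand, to any of 5 motifs: TTTGAA (the CHR element of cell cycle genes), CCAAT (the box bound by NF-Y), GGGCGG (the GC box bound by SP1), GGCGGGAA (an E2F site) and TATAAA (the TATA box). GGGCGG and GGCGGGAA can share bases, as can neighbouring GC boxes, so a run of capitals may hold more than 1 match.
CDKN1A: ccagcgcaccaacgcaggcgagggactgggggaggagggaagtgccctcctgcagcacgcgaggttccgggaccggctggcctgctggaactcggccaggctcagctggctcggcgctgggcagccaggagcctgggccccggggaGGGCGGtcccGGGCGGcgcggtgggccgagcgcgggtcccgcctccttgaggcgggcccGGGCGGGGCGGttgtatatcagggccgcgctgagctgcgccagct
CDKN2D: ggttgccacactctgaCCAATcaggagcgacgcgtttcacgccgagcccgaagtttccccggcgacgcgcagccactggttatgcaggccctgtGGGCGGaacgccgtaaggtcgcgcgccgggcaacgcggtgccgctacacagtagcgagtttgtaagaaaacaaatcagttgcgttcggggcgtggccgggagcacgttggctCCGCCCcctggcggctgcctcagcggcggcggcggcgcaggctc
CDKN3: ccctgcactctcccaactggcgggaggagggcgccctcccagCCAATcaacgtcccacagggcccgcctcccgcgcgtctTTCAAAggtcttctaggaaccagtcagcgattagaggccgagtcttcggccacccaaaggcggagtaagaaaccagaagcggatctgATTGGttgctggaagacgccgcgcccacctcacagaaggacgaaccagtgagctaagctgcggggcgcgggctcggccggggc
These windows are chr6:36678464-36678713 (plus strand), chr19:10568980-10569229 (minus strand) and chr14:54396757-54397006 (plus strand). The CDKN1A window held 4 GC boxes, the last 2 sharing a base, and 0 matches to the other 4 motifs. CDKN2D had 1 CCAAT box and 2 GC boxes. CDKN3 had 1 CHR match, from base -170 to -165 counted from the start, and 2 CCAAT boxes, with 0 GC boxes. Among 35116 windows of this length, 13.3% held TTTGAA, 32% CCAAT, 42.6% GGGCGG, 2.72% GGCGGGAA and 10.7% TATAAA. Measured genes that did not pass held some of the same motifs. The CDKN1B window had 2 CCAAT boxes and 1 GC box, the CDKN2B window 2 GC boxes, and the 2 CDKN2A windows 1 and 0 GC boxes. All these matches describe the letters in the windows only.

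CDKN1A, which encodes the inhibitor p21, was higher with miR-151a by both of its probe sets. The brighter one, 11715388_s_at, had intensities of 2273, 2291 and 2330 in the miR-151a samples and 1797, 1811 and 1832 in the miR-NC samples. The groups did not overlap, and the gap between them was far wider than the spread within either. Its difference was 0.34 (SE 0.046, 95% interval 0.24 to 0.45), a rise of 26.7% (adjusted p = 0.0029). The other probe set, 11715387_at, read 769, 768 and 815 with miR-151a and 649, 630 and 587 with miR-NC. Here too every miR-151a sample lay above every miR-NC sample, and the difference of 0.33 (95% interval 0.20 to 0.47, adjusted p = 0.0081) was close to that of the brighter probe set. Both probe sets stayed past the threshold in each of the 11 alternative fits, with differences between 0.33 and 0.36 for the brighter and between 0.29 and 0.37 for the dimmer one.

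CDKN1B, which restrains CDK2 in resting cells and is removed by the SKP2 ubiquitin ligase, leaned the other way but did not pass. Its brighter probe set, 11717091_s_at, read 401, 385 and 364 with miR-151a and 465, 402 and 431 with miR-NC. The highest miR-151a value and the lowest miR-NC value, 401.3 and 402.0, nearly met. The difference was -0.17 (95% interval -0.33 to -0.02, adjusted p = 0.14). It passed in 1 of 11 alternatives, the variance trend with a robust fit, where its adjusted p was 0.019 (range 0.019 to 0.34). The dimmer probe set, 11748603_a_at, read 132, 145 and 127 with miR-151a and 146, 142 and 143 with miR-NC, with overlapping groups and a difference of -0.09 (95% interval -0.23 to 0.04).

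CDKN1C, an imprinted inhibitor of embryonic growth, was near the floor of the arrays. All 18 values of its 3 probe sets lay below the lower quartile of their array, between 6.98 and 11.9. The brightest, 11763717_a_at, read 11.9, 11.9 and 11.0 with miR-151a and 10.9, 10.8 and 8.33 with miR-NC. Groups did not overlap for 2 of the 3 probe sets, both with miR-151a higher. The differences ran from 0.05 to 0.21 and 0 passed in limma (adjusted p from 0.16 to 0.71, 1 at an unadjusted p under 0.05). At this brightness RNA and background cannot be told apart in the values used here.

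**Figure D2:**
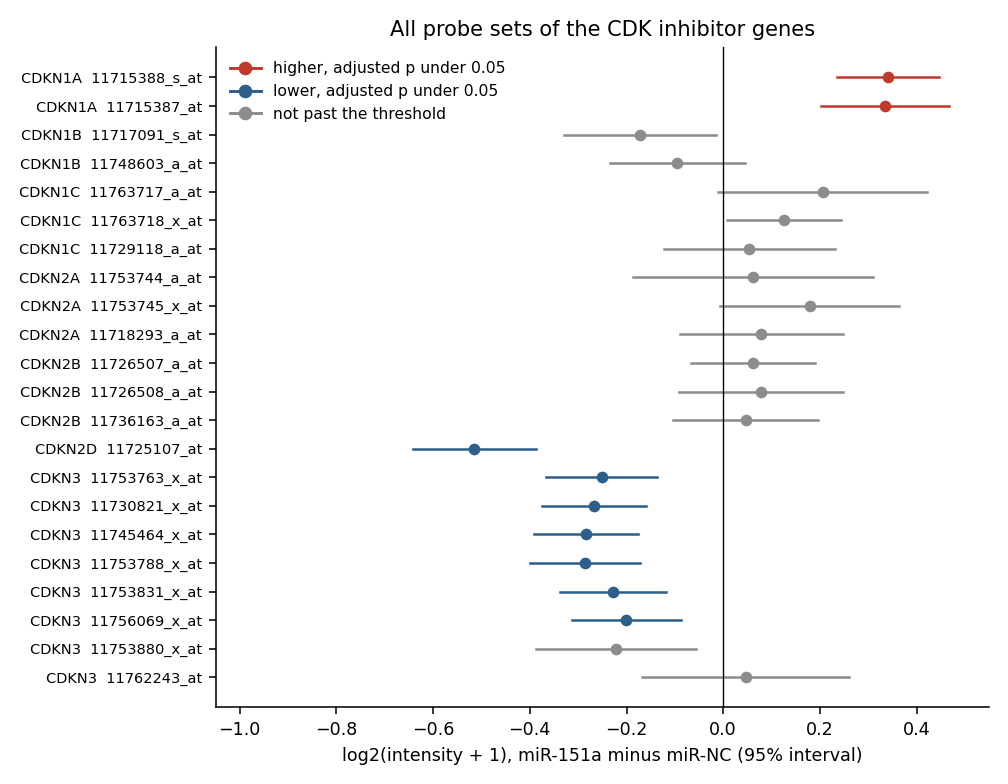
Difference between miR-151a and miR-NC samples on the log2(intensity + 1) scale (horizontal axis, point and 95% interval of the limma fit over all probe sets) for each of the 22 probe sets. Both CDKN1A probe sets lie right of 0, the CDKN2D probe set and 7 of 8 CDKN3 probe sets lie left of 0 with intervals that leave it out, and the CDKN2A and CDKN2B intervals all hold 0.

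Among the INK4 genes, CDKN2D was measured well above the floor and fell. It encodes an inhibitor of CDK4 and CDK6 whose RNA is known to vary over the cell cycle. Its single probe set, 11725107_at, read 152, 166 and 167 with miR-151a and 228, 231 and 233 with miR-NC. The groups lay far apart, and the lowest miR-NC sample exceeded the highest miR-151a sample by more than the range of either group. The difference was -0.52 (SE 0.055, 95% interval -0.64 to -0.39), a fall of 30.0% (adjusted p = 0.0011). Over the 11 alternatives it lay between -0.54 and -0.44 and passed in each. With 1 probe set, no second reading of this RNA was at hand.

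CDKN2A and CDKN2B, which lie side by side on chromosome 9, were dim and showed no detectable difference. CDKN2A encodes p16 and, from another reading frame, the protein ARF, and the annotation does not say which transcript a probe set reads. Its brightest probe set, 11753744_a_at, read 24.0, 17.9 and 21.7 with miR-151a and 18.6, 22.4 and 19.6 with miR-NC, above the lower quartile of every array. The groups overlapped, and the difference was 0.06 (95% interval -0.19 to 0.31, adjusted p = 0.77). The next, 11753745_x_at, read 17.7, 15.4 and 16.2 with miR-151a and 13.0, 15.9 and 14.4 with miR-NC, on both sides of the lower quartile, with a difference of 0.18 (95% interval -0.01 to 0.36). The dimmest, 11718293_a_at, lay below that quartile in all 6 samples, with a mean of 9.57 ± 0.454 (SD, n = 3) for miR-151a, against 9.03 ± 0.905 (SD, n = 3) for miR-NC. All 3 probe sets had overlapping groups, and 0 had an unadjusted limma p under 0.05.

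CDKN2B, an inhibitor that TGF-beta is known to induce, lay still lower. All 18 values of its 3 probe sets were below the lower quartile of their array, from 5.02 to 13.3. The brightest, 11726507_a_at, read 12.0, 13.3 and 12.4 with miR-151a and 12.1, 11.6 and 12.3 with miR-NC. The other two had means between 5.70 and 6.05 in both groups, at the 1.57th and 1.69th percentiles of all probe sets. Groups overlapped for all 3 probe sets, and the differences were 0.05 to 0.08 (adjusted p from 0.54 to 0.71, 0 at an unadjusted limma p under 0.05). The lowest value on any array was 4.15, so these readings leave little room for a fall to be seen.

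The genes beside the INK4 loci were read for comparison, from 12 neighbours of CDKN2A and CDKN2B or of CDKN2C. MTAP, an enzyme of methionine salvage that lies next to CDKN2A and is often lost with it in tumours, had 5 of its 6 probe sets below the lower quartile in all 6 samples. The remaining one read 49.7, 49.7 and 55.2 with miR-151a and 54.8, 45.8 and 45.7 with miR-NC. CDKN2B-AS1, the antisense RNA of the locus, lay at the 12.7th percentile of all probe sets, and KLHL9, a ubiquitin ligase adaptor farther along the same arm, had 5 of 5 probe sets below the lower quartile in all samples. DMRTA1, IFNE and HACD4 were also under the 25th percentile by their brightest probe set, and FOCAD lay at the 28.4th. ELAVL2, a neuronal RNA-binding protein gene, was brighter, at the 57.8th percentile. Beside CDKN2C, FAF1 lay at the 24.8th percentile, TTC39A at the 39.4th, and RNF11 and EPS15 at the 92.4th and 92.9th. Of these 12 genes 0 passed in limma over all genes by their brightest probe set. At an unadjusted p under 0.05, 1 of them did: ELAVL2. Over all probe sets, 1 of the 6 EPS15 probe sets passed as lower. Brightness depends on each probe set's sequence as well as on the RNA, so percentiles place a probe set on the array and do not rank RNA amounts between genes.

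**Figure D3:**
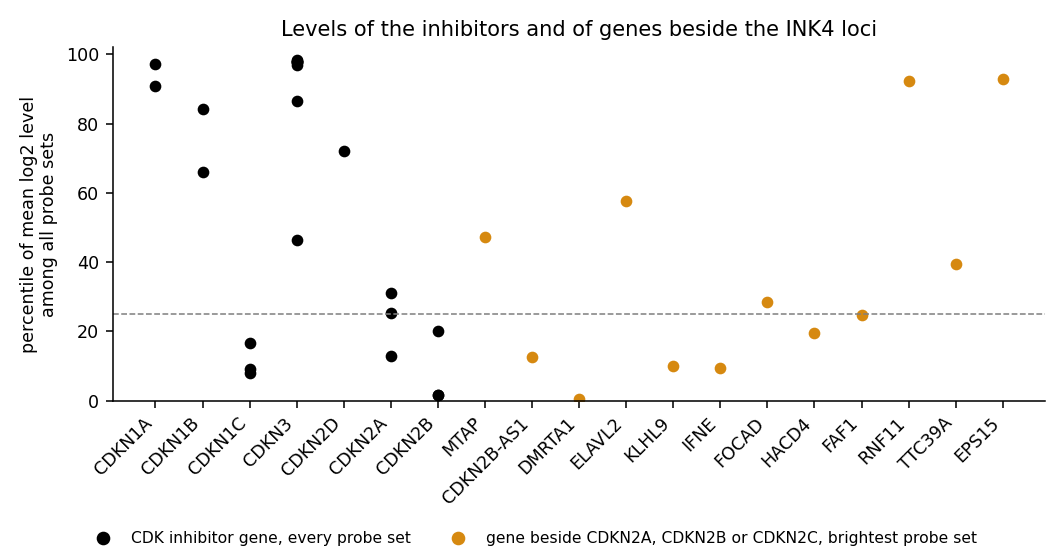
Percentile of the mean log2 level over 6 samples among all 49293 probe sets (vertical axis), for every probe set of the 7 measured CDK inhibitor genes (black) and for the brightest probe set of 12 genes beside the INK4 loci (orange). The dashed line is the 25th percentile; all CDKN1C and CDKN2B probe sets and 1 of 3 CDKN2A probe sets lie below it, as do 5 of the 8 neighbours of CDKN2A and CDKN2B.

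CDKN3, the CDK-associated phosphatase, fell by most of its 8 probe sets. The brightest, 11753763_x_at, read 2717, 2809 and 2733 with miR-151a and 3392, 3261 and 3178 with miR-NC. Every miR-151a sample lay below every miR-NC sample, and the difference was -0.25 (95% interval -0.37 to -0.14, adjusted p = 0.014). The probe set with the smallest p, 11745464_x_at, read 2198, 2275 and 2197 with miR-151a and 2717, 2708 and 2693 with miR-NC, a fall of 17.8% (difference -0.28, adjusted p = 0.0067). In all, 6 probe sets were lower past the threshold, and the falls of the 7 probe sets whose name ends in x_at ran from 13.0% to 17.9%. The suffix marks probe sets with probes that may match other transcripts, and those of 1 gene can share probes, so these 7 are not independent readings.

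The other two CDKN3 probe sets did not pass. One, 11753880_x_at, read 464, 450 and 404 with miR-151a and 546, 510 and 480 with miR-NC, with groups apart and a difference of -0.22 (95% interval -0.39 to -0.06, adjusted p = 0.083). The dimmest, 11762243_at, read 55.3, 47.1 and 42.4 with miR-151a and 45.8, 44.5 and 49.1 with miR-NC, with overlapping groups and a difference of 0.05 (95% interval -0.17 to 0.26). Leaving out single samples ended the call of 3 probe sets. That of 11753763_x_at had an adjusted p of 0.054 without miR-NC replicate 1 (range over its alternatives 2.2e-06 to 0.054). For 11753831_x_at it was 0.056 when miR-151a replicate 3 was left out, and 0.067 and 0.063 when miR-NC replicate 2 or 3 was (range 6.4e-06 to 0.067). For 11756069_x_at it was 0.087 and 0.084 when miR-151a replicate 2 or 3 was left out, and 0.065, 0.096 and 0.10 when miR-NC replicate 1, 2 or 3 was (range 8.2e-05 to 0.10). With the mean over all its probe sets the gene's difference was -0.21, and it stayed past the threshold.

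**Figure D4:**
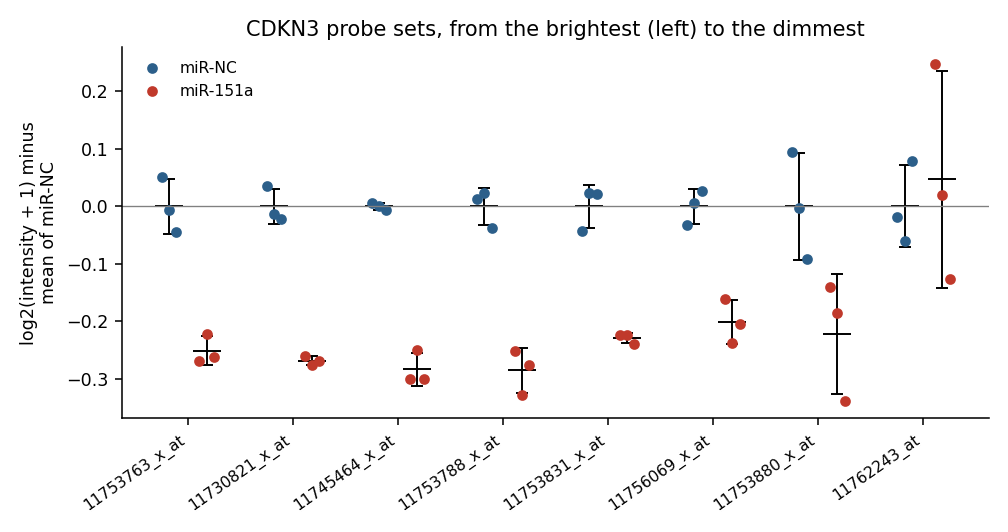
The 8 CDKN3 probe sets by sample, as log2(intensity + 1) minus the mean of the miR-NC samples (vertical axis), ordered from the brightest to the dimmest, with miR-NC in blue, miR-151a in red and black bars for the mean and SD of 3 samples. The groups stay apart for the 7 x_at probe sets and overlap for the dimmest one.

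A list of 17 genes was written from knowledge of the pathway. It held the kinases and cyclins that the inhibitors bind, and also CDK7 with its partner subunits, and PCNA. Counts over the list are thus not counts of bound kinases and cyclins alone. All 17 genes were measured, 7 passed as lower and 1 as higher, with a median difference of -0.18. Among all genes 8.11% were lower and 7.27% higher, with a median of -0.01. CDK4 and CDK6, the partners of the INK4 proteins, did not pass: CDK4 was at 0.04 (95% interval -0.07 to 0.16) and CDK6 at 0.07 (-0.07 to 0.20). The D-type cyclins that activate them were at 0.06 for CCND1, 0.16 for the dim CCND2 and -0.18 for CCND3, and none of these passed (adjusted p = 0.45, 0.37 and 0.11). Several partners of the CIP/KIP proteins fell. CCNE2, a cyclin of CDK2 at the G1/S step, had intensities of 172, 183 and 173 with miR-151a and 271, 252 and 254 with miR-NC, a fall of 31.8% (adjusted p = 0.00056). CCNA2, the S phase cyclin, fell by 30.8% (adjusted p = 0.0015), and CDK2 by 14.1% (adjusted p = 0.021). CCNE1 was at -0.19 and did not pass (adjusted p = 0.068). The mitotic kinase CDK1, which CDKN3 dephosphorylates, fell by 18.5%, and its cyclins CCNB1 and CCNB2 fell by 20.9% and 25.7%. PCNA, the replication clamp that CDKN1A also binds, fell by 20.7% by its brightest probe set, while its dimmer one was at -0.14. CDK7, the kinase that adds the activating phosphate, was the 1 gene that rose, from 709, 695 and 720 with miR-NC to 798, 869 and 822 with miR-151a (17.1%, adjusted p = 0.020). CDK1, CDK2, CDK4, CDK6, CDK7, the D-type cyclins, CCNE1 and PCNA were named after their values were seen. The calls of CDK7 and CDK2 were lost when any single sample other than miR-151a replicate 1 was left out. In the order miR-151a 2 and 3, then miR-NC 1, 2 and 3, the adjusted p of CDK7 was then 0.056, 0.054, 0.061, 0.074 and 0.052 (range over its alternatives 9.8e-05 to 0.074). That of CDK2 was 0.064, 0.070, 0.066, 0.079 and 0.051 (range 0.00052 to 0.079).

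Downstream of these kinases stand the RB proteins, which the kinases inactivate, and the E2F factors that RB proteins hold back. Of 13 measured genes, 4 passed as lower and 1 as higher, with a median difference of -0.17, beside 8.11% lower and 7.27% higher among all genes and a median of -0.01. E2F8, an atypical repressor that is itself an E2F target, read 152, 150 and 157 with miR-151a and 218, 211 and 210 with miR-NC, a fall of 27.9% (adjusted p = 0.00057). The activator E2F1 fell by 18.9%, TFDP1, a partner subunit of the E2F factors, by 19.5%, and E2F2, named after its value was seen, by 18.7%. The other E2F2 probe set was at -0.02, and the mean over both was -0.16 against -0.30 for the brighter one. E2F6, a repressor that works apart from RB, rose by 22.5% (adjusted p = 0.011), and 3 of its 5 probe sets passed as higher. RB1, RBL1 and RBL2 were at -0.17, -0.34 and -0.17 by their brightest probe sets and did not pass (adjusted p from 0.065 to 0.12). They are named here after their values were seen. Of their probe sets, 2 of 3 for RBL1 and 1 of 4 for RBL2 passed as lower over all probe sets. The call of E2F2 was lost when miR-151a replicate 1 or 2 was left out (adjusted p = 0.088 and 0.078), and when miR-NC replicate 2 or 3 was (0.063 and 0.083, range over its alternatives 0.0026 to 0.088).

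**Figure D5:**
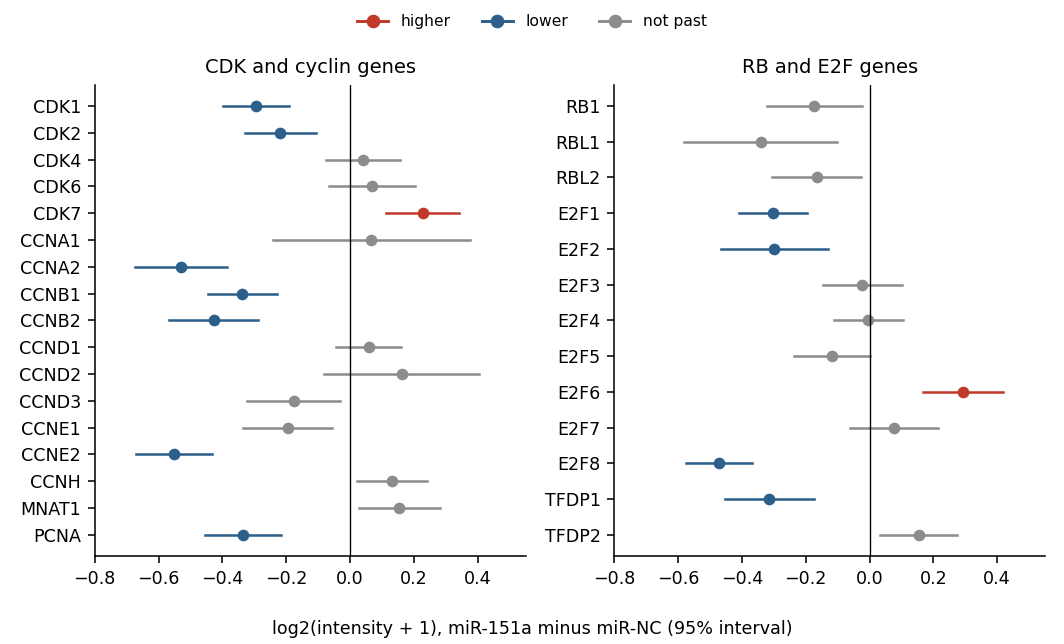
Difference between miR-151a and miR-NC samples on the log2(intensity + 1) scale (horizontal axis, point and 95% interval of the limma fit over all genes) by the brightest probe set of each gene, for 17 CDK and cyclin genes (left) and 13 RB and E2F genes (right). The cyclins CCNA2 and CCNE2 lie farthest left in the first panel and E2F8 in the second, while CDK4, CDK6 and CCND1 lie near 0.

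Regulators of the inhibitors moved in both directions. Of 41 listed names 35 were matched to a measured gene. Of these, 7 passed as higher and 6 as lower, beside 7.27% higher and 8.11% lower among all genes, and the median difference was -0.01 in the list and over all genes. ETS2, a transcription factor known to activate CDKN2A, had the smallest p, with 486, 555 and 533 with miR-151a and 341, 330 and 337 with miR-NC, a rise of 55.7% (adjusted p = 0.00052), and both of its probe sets passed. ZBTB17, the factor through which MYC represses CDKN1A and CDKN2B, rose by 36.7%, though its 4 probe sets ran from -0.06 to 0.67 and 2 passed. SKP2, the ubiquitin ligase subunit that targets the CDKN1B protein, read 42.8, 46.2 and 44.2 with miR-151a and 62.9, 68.4 and 63.9 with miR-NC, a fall of 31.2% (adjusted p = 0.00075). Its cofactor CKS1B fell by 14.2% (adjusted p = 0.026), DTL, which targets the CDKN1A protein, by 12.6% (adjusted p = 0.034), and CDC20, an activator of the anaphase-promoting complex, by 22.9% (adjusted p = 0.0027). The 3 CDC20 probe sets ran from -0.38 to 0.07 and 2 passed as lower, and the mean over them was -0.22 against -0.38 for the brightest. SKP2 was at -0.34 with a pseudocount of 32, against -0.54. Other ubiquitin ligase genes of the list did not pass as lower by their brightest probe set. RNF123 rose by 13.8% (adjusted p = 0.042 in limma over all genes), though 0 of its 2 probe sets passed over all probe sets. SKP1, CUL1, CUL4A, DDB1 and FBXW7 did not pass, while 1 of 3 SKP1 and 1 of 2 CUL1 probe sets passed as lower over all probe sets. CKS1B, DTL and these 6 genes were named after their values were seen. Leaving out miR-151a replicate 1, 2 or 3 turned the 7 rises into 5, 3 and 4 and the 6 falls into 3, 4 and 3. Leaving out miR-NC replicate 1, 2 or 3 turned them into 4, 3 and 3 rises and 3, 3 and 3 falls. The calls of CKS1B and DTL were among those lost, with adjusted p up to 0.086 and 0.11 (ranges over the alternatives 9.1e-05 to 0.086 and 0.0034 to 0.11), and CKS1B stayed past the threshold without miR-151a replicate 2.

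Genes with the profile nearest to a member were found by the Euclidean distance between log2 values over the 6 samples, each gene centred on its own mean. Nearest to CDKN1A were GULP1, an adaptor for the engulfment of dead cells, LATS2, a kinase of the Hippo pathway, and TCEAL7, at distances of 0.032, 0.036 and 0.042. Their differences were 0.35, 0.33 and 0.32. Nearest to CDKN2D were FPR1, a formyl peptide receptor, FAM111B and OLFML2A, at distances of 0.042, 0.057 and 0.062, with differences of -0.51, -0.51 and -0.50. With the mean over its probe sets FPR1 was at -0.16. These 6 profiles follow the 2 groups, as those of any gene with a like difference would, and 6 samples give no finer resolution.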

How the data were processed

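Probe set intensities of 6 samples were used as deposited, on a linear scale. MAS5 is named in the submitters' processing notes without its role. Per the labels' protocols, Trizol was used for extraction and the label was added by an Affymetrix whole-transcript method. The sources used here do not give the background correction, scaling or normalization. The array columns have like quantiles, so a change common to most RNAs would be hidden. No RNA is called absent, since detection calls were not used here. Groups and replicate numbers came from the sample titles.

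The members and lists were chosen with earlier results of these data known. Of 49395 rows, 102 controls were left out of the tests. Of the others 44988 named 1 gene, 1832 several and 2473 none, and 44961 of the first matched RefSeq (GRCh38.p14). Each gene was represented by its probe set of highest mean level. Values were transformed as log2(intensity + 1), which understates changes of dim probe sets, and fitted on the 2 groups by lmFit and eBayes of limma 3.58.1 (R 4.3.3). P-values were adjusted by Benjamini-Hochberg over all probe sets, or over all genes. With 3 samples against 3, the smallest p an exact two-sided permutation test allows is 0.1.

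Named genes were every member, up to 4 passing genes of each partner list by smallest p, all neighbours of the INK4 loci and the 3 nearest profiles for the members with the largest rise and fall; others are said to be named after their values were seen. Alternatives were quantile normalization, a pseudocount of 32, removal of dim probe sets or genes, and a variance trend with a robust fit. The others were the replicate number as a block, the mean over probe sets and leaving out each sample. Dim here means a mean log2 level below the 0.25 quantile of such means. Figures were drawn with matplotlib 3.10.9.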

Additional observations from a re-analysis of the deposited data

How the results depend on the processing

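In the fit over genes, CDKN1A stayed past the threshold as higher and CDKN2D and CDKN3 as lower in each of the 12 alternatives. The counts of CDK inhibitor genes and probe sets stayed within 1.5 times in each alternative: the lower genes became 3 with a variance trend and robust fit, where CDKN1B passed, and the 7 lower probe sets became 9 with a variance trend and robust fit and 5 with the replicate block, and ran from 5 to 7 without 1 sample. For the CDK and cyclin genes the 1 rise became 3 with a pseudocount of 32 and 3 with the variance trend, and ran from 0 to 1 without 1 sample. The 1 rise among RB and E2F genes became 2 with a pseudocount of 32. Their 4 falls became 6 with the variance trend and with the mean over probe sets, and ran from 3 to 5 without 1 sample. The 7 rises and 6 falls among the regulators ran from 3 to 5 and from 3 to 4 without 1 sample. Rises became 9 with quantile normalization, with a pseudocount of 32 and on removal of dim genes, and falls became 9 with the variance trend. The 0 falls beside the INK4 loci became 1, ELAVL2, in some alternatives. These were quantile normalization, a pseudocount of 32, removal of dim genes, the variance trend and the mean over probe sets. In that order the log2 differences were -0.29, -0.21, -0.29, -0.29 and -0.29. The cause of these changes was not tested. Fits that left out 1 sample also had fewer samples, and the part of each was not told apart.

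Correlations of deviations from the group means were 0.03, -0.17 and 0.18 for same-numbered samples. For samples with other numbers they ran from -0.21 to 0.17. With 3 samples a group, these correlations cannot show whether same-numbered samples were handled together. With the replicate block the rises among CDK and cyclin genes became 0 and the rises and falls among the regulators became 3 and 3, and 11753831_x_at and 11756069_x_at of CDKN3 had adjusted p of 0.056 and 0.085.

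Signs turned for 10 values that did not pass, and 9 of these turned without 1 sample. Over those fits the log2 difference ran from -0.021 to 0.094 for CDKN1C 11729118_a_at, from -0.026 to 0.17 for CDKN2A 11753744_a_at (the same values in the fit over genes), from -0.018 to 0.087 for CDKN2B 11736163_a_at and from -0.053 to 0.13 for CDKN3 11762243_at. It ran from -0.18 to 0.045 for CDKN2B-AS1, from -0.011 to 0.084 for FOCAD, from -0.057 to 0.010 for IFNE and from -0.15 to 0.017 for KLHL9. MTAP was at -0.049 with the mean over probe sets. CDKN1C, CDKN2A and CDKN2B were the dimmest members, and background was not measured here. Removal of probe sets with a mean level below the 0.25 quantile left out all those of CDKN1C and CDKN2B and 1 of CDKN2A.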
